A study of Mus musculus with 4 samples.

Results

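The genes described here encode the contractile apparatus of smooth muscle. The list holds 46 symbols, and members were all rows of the deposited gene tables that carry one of them. Ptrf and Cavin1 are an older and a newer symbol of 1 gene and only Ptrf was found, which left 45 genes of 24319 in the tables.

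Smooth muscle contracts when myosin filaments pull on actin filaments that are anchored in dense bodies inside the cell and in plaques at its membrane. In the prostate these cells wrap the glandular ducts and squeeze secretion out of them. Phosphorylation of the myosin light chain by its calcium-dependent kinase starts the pull, a myosin phosphatase ends it, and the ROCK kinases hold that phosphatase back. Transcription of the contractile genes is driven in textbook terms by serum response factor (SRF) with its co-activators myocardin and MRTF.

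The 4 RNA-seq libraries were 2 of normal prostate, from wild-type F1 males of C57BL/6 and FVB parents at 22 weeks, and 2 of TRAMP tumours labelled late stage, at 24 weeks in the sample labels, from F1 males of the same strains carrying 1 copy of the SV40 T antigen transgene under the rat probasin promoter. That promoter is active in prostate epithelium, so the transgene is not directed to muscle cells, and the dissected tissue held all its cell types. In such bulk samples fewer muscle cells and less RNA per muscle cell cannot be told apart. The labels name no mouse for either tumour, so a p-value reflects how far these samples spread, and no batch is given.

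The libraries held 985509 to 1578847 fragments as implied by the width of the deposited confidence intervals. Values below are FPKM (fragments per kilobase of transcript in a library of fixed size) divided by a factor that brings the median gene of each library to the same level, called scaled FPKM. The factors differed by 0.94 on the log2 scale between tumours and normal glands, so the direction of small changes depends on this step. With FPKM as deposited the median fold change of all genes tested was 0.86 on the log2 scale, against 0.07 after scaling. Genes with an FPKM of at least 1 in at least 2 libraries were tested with limma on log2(scaled FPKM + 1), tumour minus normal, with p-values adjusted by Benjamini-Hochberg across the 13162 genes that passed this filter, and called at 0.05. This scale understates the change of low genes. A log2 difference is tumour minus normal on that scale, and SE is its standard error. Gene positions are in build mm10, counted from 1. The label of the list was checked on its own members, which is no test of it. In the normal glands Acta2, Actg2, Tagln, Cnn1, Des and Myh11 lay between 27.6 and 259.9 scaled FPKM. Smtn, Lmod1, Synm and Synpo2 were lower there, between 1.82 and 12.3.

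Contractile genes were lower in the tumours while several cytoskeletal relatives of non-muscle cells were not. Of the 45 members 39 were tested, of which 10 fell, 2 rose and 27 did not pass. Over all genes tested, 8.27% were called lower and 9.85% higher, against 25.6% and 5.13% of the members tested. The genes that fell were Myh11, Myl6, Myl9 and Mylk of the myosin motor, Tpm2 of the thin filament, Synm, Csrp1 and Pdlim3 of the anchoring structures, Jph2 of the membrane, and Srf. Those that rose were Tpm4 and Tagln2. In either direction 12 members were called, 30.8% against 18.1% of all genes, and 24 had an unadjusted p under 0.05, 61.5% against 39.8%. The groups did not overlap in 28 members that were lower and 6 that were higher in both tumours, 71.8% and 15.4% of the members tested, where all genes tested gave 33.3% and 37.7%. The same 4 libraries stand behind every member, so members are no independent replicates. On the deposited FPKM 5 members fell and 4 rose, beside 3.24% and 28.0% of all genes, and the groups did not overlap in 18 lower and 12 higher members, beside 14.5% and 59.4%. With a trimmed sum as the factor, which drops genes above 1% of the FPKM, 7 fell and 3 rose, beside 4.21% and 19.3%. A pseudocount of 0.1 ended the calls of Myh11, Myl6, Mylk, Synm, Pdlim3, Srf and Jph2, dropping the intensity trend those of Myl6, Tagln2, Tpm4 and Srf, and dropping the filter all but that of Myl9. When either normal library was left out limma called 0 members and 0 genes. In each of those fits 37 members were tested, since Jph2 and Synpo2 no longer reached the filter. The median log2 difference of these members was -1.5 without normal 1 and -1.32 without normal 2.

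**Figure D1:**
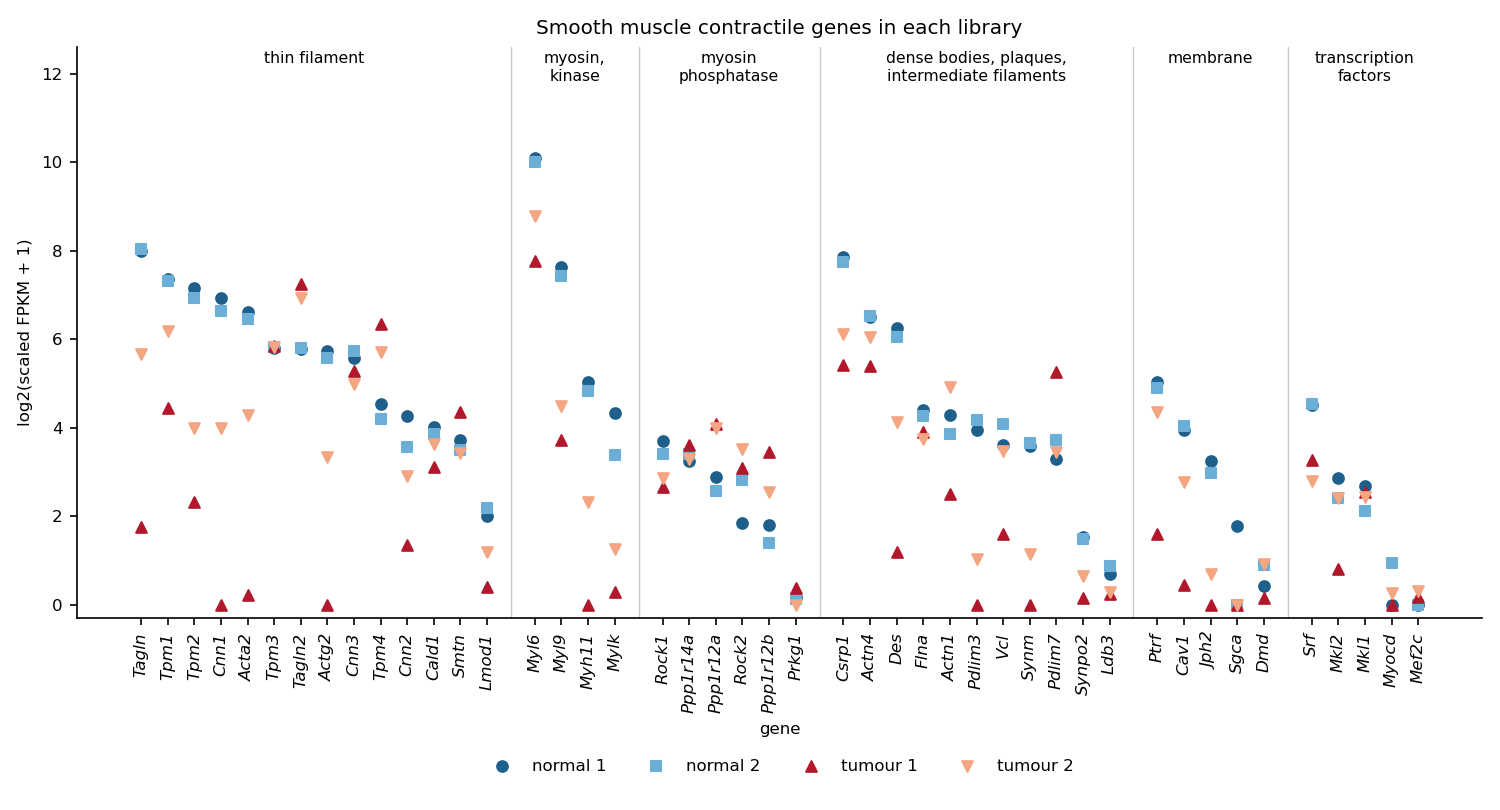
Level of each of the 45 members on the log2(scaled FPKM + 1) scale (vertical axis) in each library, grouped by role and ordered by their normal mean. Blue points are the normal glands and red or orange triangles the tumours; for Tagln, Cnn1, Acta2, Actg2 and Des the order is normal, then tumour 2, then tumour 1, while for Tagln2 and Tpm4 both tumours lie above.

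The myosin motor was the role in which every member passed. Myh11, the heavy chain of smooth muscle myosin (chromosome 16, 14194527 to 14291408), lay at 32.0 and 27.6 scaled FPKM in the normal glands, was listed at 0 in tumour 1 and lay at 4.03 in tumour 2. Both tumours were below both normal glands, and it fell by 3.78 in log2 units (SE 0.83, adjusted p = 0.0440). Myl9, the regulatory light chain of smooth muscle (chromosome 2, 156775464 to 156781657), lay at 196 and 170.2 in the normal glands and at 12.2 and 21.5 in the tumours. It was low to a similar degree in both tumours, and it fell by 3.41 (SE 0.35, adjusted p = 0.0195). Its call held in 8 of 10 alternatives, being lost when a normal library was left out. Mylk, the kinase that phosphorylates this light chain, lay at 19.0 and 9.36 against 0.217 and 1.41, with a log2 difference of -3.07 (SE 0.59, adjusted p = 0.0346). The tumour values rested on 3.0 and 20.6 implied fragments. Myl6, the essential light chain that muscle and non-muscle myosin share, was the most abundant member at 1083 and 1020.3 in the normal glands and lay at 216 and 440.3 in the tumours. It fell by 1.76 (SE 0.39, adjusted p = 0.0446). With FPKM as deposited the calls of Myh11 (-3.11, adjusted p = 0.0738), Mylk (-2.45, adjusted p = 0.0527) and Myl6 (-0.82, adjusted p = 0.215) were lost.

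The defining thin-filament genes of smooth muscle showed the largest differences of the list, yet did not pass, and their levels differed between the tumours. Acta2, smooth muscle alpha-actin (chromosome 19, 34240336 to 34255373), lay at 97.6 and 87.0 scaled FPKM in the normal glands, at 0.174 in tumour 1 and at 18.5 in tumour 2. The value of tumour 1 rested on 1.0 implied fragment and that of tumour 2 on 88.0. Its log2 difference came to -4.28 (SE 1.33, adjusted p = 0.0826). Actg2, the gamma-actin of visceral smooth muscle, lay at 51.9 and 47.0, was listed at 0 in tumour 1 and lay at 9.17 in tumour 2 (adjusted p = 0.0681). Cnn1, calponin of differentiated smooth muscle, lay at 120.4 and 99.0, was listed at 0 in tumour 1 and lay at 14.98 in tumour 2 (adjusted p = 0.0648). Tagln, transgelin or SM22 (chromosome 9, 45929628 to 45936058), was the most abundant thin-filament member at 254 and 259.9, and lay at 2.39 in tumour 1 and 49.9 in tumour 2 (adjusted p = 0.0755). In each of these genes both tumours lay below both normal glands and tumour 1 below tumour 2. With tumour 1 left out the log2 differences of Acta2, Actg2, Cnn1 and Tagln were -2.18, -2.23, -2.71 and -2.27, and with tumour 2 left out they were -6.16, -5.48, -6.61 and -6.19, all with an adjusted p under the threshold. Such a fit takes the spread of a lone tumour from that of the normal pair.

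Both fits with 1 tumour called more members. Without tumour 1, 17 members were called lower and 4 higher, where 20.0% and 11.6% of all genes were called. Without tumour 2 the counts were 24 and 5, beside 30.8% and 19.7% of all genes. The same 17 members were called lower and the same 3 higher in both of these fits.

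Tropomyosins, which wind along actin filaments and govern access of myosin to them, went in different directions. Tpm2 (chromosome 4, 43513726 to 43523554), a muscle tropomyosin, lay at 142.7 and 121.7 scaled FPKM in the normal glands and at 4.04 and 14.9 in the tumours, and fell by 3.89 in log2 units (SE 0.60, adjusted p = 0.0257). Tpm4 (chromosome 8, 72135292 to 72153129), a mainly non-muscle tropomyosin, lay at 22.0 and 17.4 against 80.8 and 51.6, and rose 3.18-fold (log2 difference 1.67, SE 0.35, adjusted p = 0.0398). Tpm1, which is spliced into muscle and non-muscle forms that a gene table does not separate, lay at 163 and 157 against 20.9 and 72.3 (log2 difference -2.01, SE 0.61, adjusted p = 0.0783). Tpm3 lay at 54.8 and 55.6 against 56.1 and 55.6 (log2 difference 0.02, SE 0.25, adjusted p = 0.963). Of these genes Tpm2 was low and Tpm4 high in both tumours, and Tpm1 was low most of all in tumour 1.

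Shares within a family do not depend on how libraries are scaled to each other, and in both tumours they were lower for a muscle form and higher for a non-muscle relative. Tpm1 and Tpm2 together made up 79.9% and 79.3% of the FPKM summed over the tropomyosin genes in the normal glands, 15.4% in tumour 1 and 44.8% in tumour 2. Tpm4 alone held 5.77% and 4.95% against 49.9% and 26.5%. Tagln held 82.6% and 82.7% of the transgelin sum in the normal glands, and 1.57% and 29.3% in the tumours, the rest being Tagln2. Tagln2 (chromosome 1, 172500246 to 172507375), a transgelin of non-muscle cells, lay at 53.6 and 54.5 scaled FPKM in the normal glands and at 149.8 and 121 in the tumours, and rose 2.46-fold (log2 difference 1.30, SE 0.25, adjusted p = 0.0358). Among calponins the share of Cnn1 was 65.0% and 61.3% in the normal glands, 0% in tumour 1 and 28.8% in tumour 2, while Cnn3, an isoform not limited to muscle, made up 25.1%, 32.0%, 96.0% and 58.7%. On the scaled level Cnn3 itself lay at 46.5 and 51.8 against 38.0 and 30.5 and did not pass (adjusted p = 0.227). Cnn2, the third calponin, lay at 18.3 and 10.8 against 1.57 and 6.46 and did not pass either (adjusted p = 0.114).

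The muscle forms among the actins and the class II myosin heavy chains showed the same order of libraries. Acta2 and Actg2 together were 10.9% and 8.02% of the actin sum in the normal glands, 0.00983% in tumour 1 and 1.83% in tumour 2. The cytoplasmic actins Actb and Actg1 held 86.3% and 89.6% against 99.0% and 96.9%, and neither passed the test (adjusted p = 0.306 and 0.589). Actin coding sequences are nearly identical, so the split between these genes is uncertain. Myh11 held 40.3% and 33.3% of the summed class II myosin heavy chains in the normal glands, 0% in tumour 1 and 4.52% in tumour 2. Myh10, the heavy chain of non-muscle myosin IIB, held 5.42% and 5.71% against 70.7% and 27.3%. On the scaled level Myh10 rose from 4.30 and 4.74 to 33.9 and 24.3 (log2 difference 2.43, SE 0.36, adjusted p = 0.0247), while Myh9 of non-muscle myosin IIA lay at 32.1 and 31.5 against 14.03 and 44.4 (adjusted p = 0.70). In all these shares tumour 2 lay between tumour 1 and the normal glands. Taken alone, the shares of Actg1, Myh9 and Myh14 overlapped between tumours and normal glands. With 2 libraries against 2 an exact permutation test can reach no two-sided p under 0.33, and the shares were left untested.

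**Figure D2:**
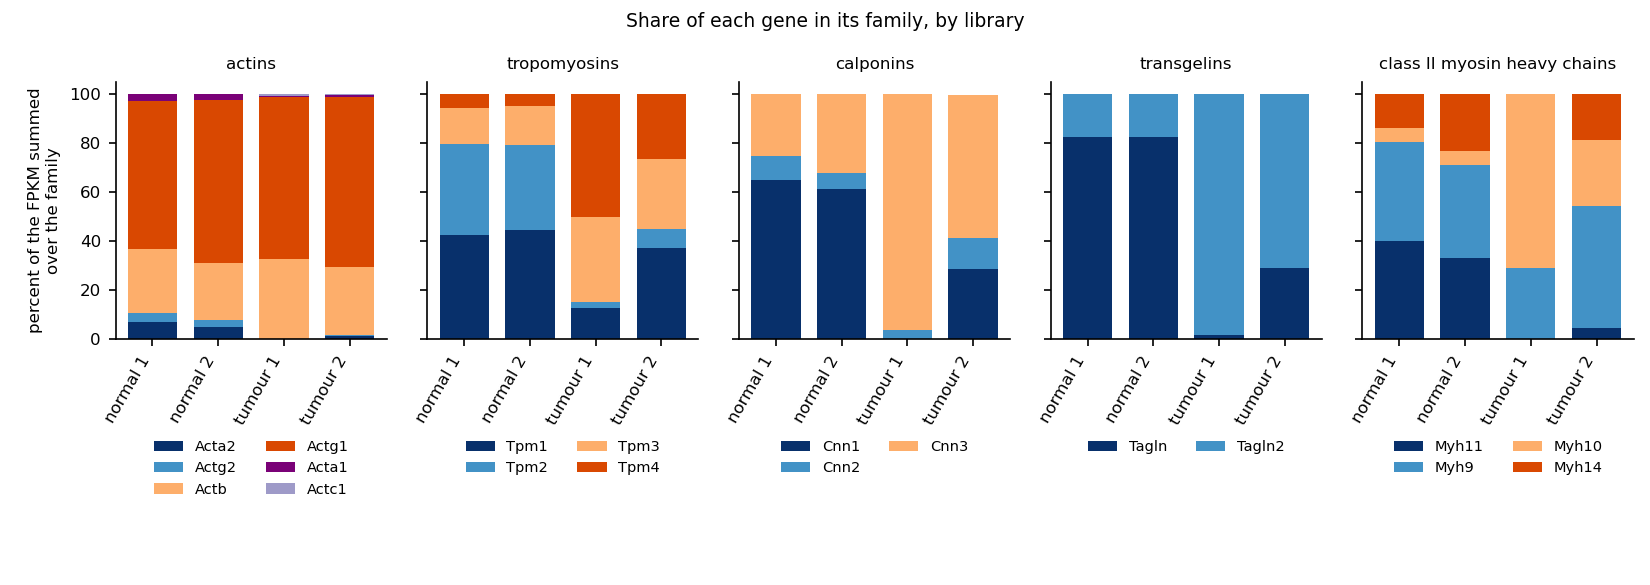
Percent of the FPKM summed over a family (vertical axis, from 0) held by each of its genes in each library, as stacked bars for 5 families. The muscle forms Tpm2, Cnn1, Tagln and Myh11 take less of the bar in both tumours, and Tpm4, Cnn3, Tagln2 and Myh10 take more.

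The remaining thin-filament members were Cald1, Smtn and Lmod1, and none of these passed. Cald1, caldesmon, which binds actin and tropomyosin and occurs in a muscle and a non-muscle form, lay at 15.3 and 13.5 scaled FPKM in the normal glands and at 7.71 and 11.4 in the tumours (log2 difference -0.56, SE 0.37, adjusted p = 0.305). Its fold change was positive under both other scalings. Smtn, smoothelin, a marker of contractile smooth muscle, lay at 12.3 and 10.3 against 19.3 and 9.81, so the groups overlapped and the highest value was that of tumour 1 (log2 difference 0.27, SE 0.44, adjusted p = 0.670). Smtn thus did not share the order of Acta2 and Cnn1. Lmod1, leiomodin, which nucleates actin filaments in smooth muscle, was low at 2.99 and 3.54 against 0.331 and 1.30, on 11.9 and 21.0 implied fragments in the normal glands and 3.0 and 9.6 in tumours 1 and 2 (adjusted p = 0.104).

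Of 10 tested genes of dense bodies, plaques and intermediate filaments, 3 fell, 0 rose and 7 did not pass, where 8.27% of all genes tested were called lower and 9.85% higher. Synm, which encodes the intermediate filament protein synemin, lay at 11.02 and 11.7 in the normal glands, was listed at 0 in tumour 1 and lay at 1.22 in tumour 2, and fell by 3.05 in log2 units (SE 0.54, adjusted p = 0.0312). Pdlim3, an alpha-actinin binding protein of muscle Z-lines and dense bodies, lay at 14.5 and 17.2, was listed at 0 in tumour 1 and lay at 1.06 in tumour 2 on 3.0 implied fragments, and fell by 3.55 (SE 0.52, adjusted p = 0.0240). Csrp1, a LIM protein of smooth muscle and other cells, lay at 229 and 212 against 41.5 and 69.0 and fell by 2.02 (SE 0.33, adjusted p = 0.0269), but did not pass on the deposited FPKM (-1.09, adjusted p = 0.0885). All these genes were lower in both tumours than in both normal glands. Des, desmin, the main intermediate filament protein of muscle, lay at 74.97 and 65.4, at 1.30 in tumour 1 and at 16.6 in tumour 2 (log2 difference -3.48, SE 0.99, adjusted p = 0.0690). Synpo2, which binds actin bundles in muscle, lay at 1.89 and 1.82 against 0.120 and 0.563 (adjusted p = 0.0932).

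Anchoring proteins of most adherent cells did not pass. Vcl, vinculin of adhesion plaques, lay at 11.3 and 16.1 scaled FPKM in the normal glands and at 2.05 and 10.2 in tumours 1 and 2 (adjusted p = 0.230). Flna, filamin A, which crosslinks actin, lay at 20.2 and 18.3 against 13.9 and 12.3 (adjusted p = 0.269). Actn1, alpha-actinin of dense bodies and focal adhesions, lay at 18.4 and 13.5, at 4.67 in tumour 1 and at 29.3 in tumour 2, so the tumours stood on opposite sides of the normal glands. Its log2 difference came to -0.35 over all libraries (SE 0.85, adjusted p = 0.778), 0.92 without tumour 1 (adjusted p = 0.0452) and -1.53 without tumour 2 (adjusted p = 0.00389), so each single tumour passed in the opposite direction. Actn4 lay at 89.4 and 90.5 against 41.3 and 65.7 (adjusted p = 0.141). The signs of Flna, Actn1 and Actn4 turned positive on the deposited FPKM. Pdlim7, another PDZ and LIM protein, was highest in tumour 1 at 37.2, with 8.77, 12.2 and 9.86 in normal 1, normal 2 and tumour 2 (adjusted p = 0.390).

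At the membrane, Jph2, junctophilin, which ties the sarcoplasmic reticulum to the plasma membrane, lay at 8.48 and 6.94 in the normal glands, was listed at 0 in tumour 1 and lay at 0.615 in tumour 2 on 3.6 implied fragments. It fell by 2.77 in log2 units (SE 0.45, adjusted p = 0.0269). It reached the filter through the normal glands alone, so the test could only come out lower. Synpo2 was the other member of that kind. Cav1, caveolin, and Ptrf, cavin-1, which together shape the caveolae that are dense in smooth muscle, were low mainly in tumour 1. Cav1 lay at 14.4 and 15.5 against 0.356 and 5.86 (adjusted p = 0.105), and Ptrf at 31.5 and 28.7 against 2.05 and 19.3 (adjusted p = 0.181). Endothelial and fat cells hold caveolae too. Members below the filter were Dmd, dystrophin, between 0.121 and 0.890 in all libraries, Sgca, alpha-sarcoglycan, at 2.42 in normal 1 and listed at 0 elsewhere, Ldb3, a Z-line protein, between 0.182 and 0.834, and Prkg1, the cGMP-dependent kinase that relaxes smooth muscle, at or below 0.308.

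Genes that set the activity of the myosin phosphatase gave 0 calls among 5 tested by limma, where 8.27% of all genes were called lower and 9.85% higher. Ppp1r12a, the subunit that targets the phosphatase to myosin, lay at 6.4 and 4.92 scaled FPKM in the normal glands and at 15.9 and 14.9 in the tumours (log2 difference 1.31, SE 0.36, adjusted p = 0.0647). Ppp1r12b, its relative of striated and other muscle, lay at 2.52 and 1.65 against 9.996 and 4.85 (log2 difference 1.39, SE 0.50, adjusted p = 0.112). The normal values of Ppp1r12b rested on 6.3 and 5.2 implied fragments. For both genes the tumours lay above the normal glands without overlap, as for 37.7% of all genes tested. On the deposited FPKM both passed as higher, where 28.0% of all genes did. Ppp1r14a, a smooth muscle inhibitor of the phosphatase also called CPI-17, lay at 8.48 and 9.57 against 11.3 and 8.86 on 3.0 to 9.0 implied fragments, and the groups overlapped (adjusted p = 0.799). Of the ROCK kinases, Rock1 lay at 12.0 and 9.69 against 5.32 and 6.25 (adjusted p = 0.178) and Rock2 at 2.62 and 6.01 against 7.57 and 10.5 (adjusted p = 0.211).

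**Figure D3:**
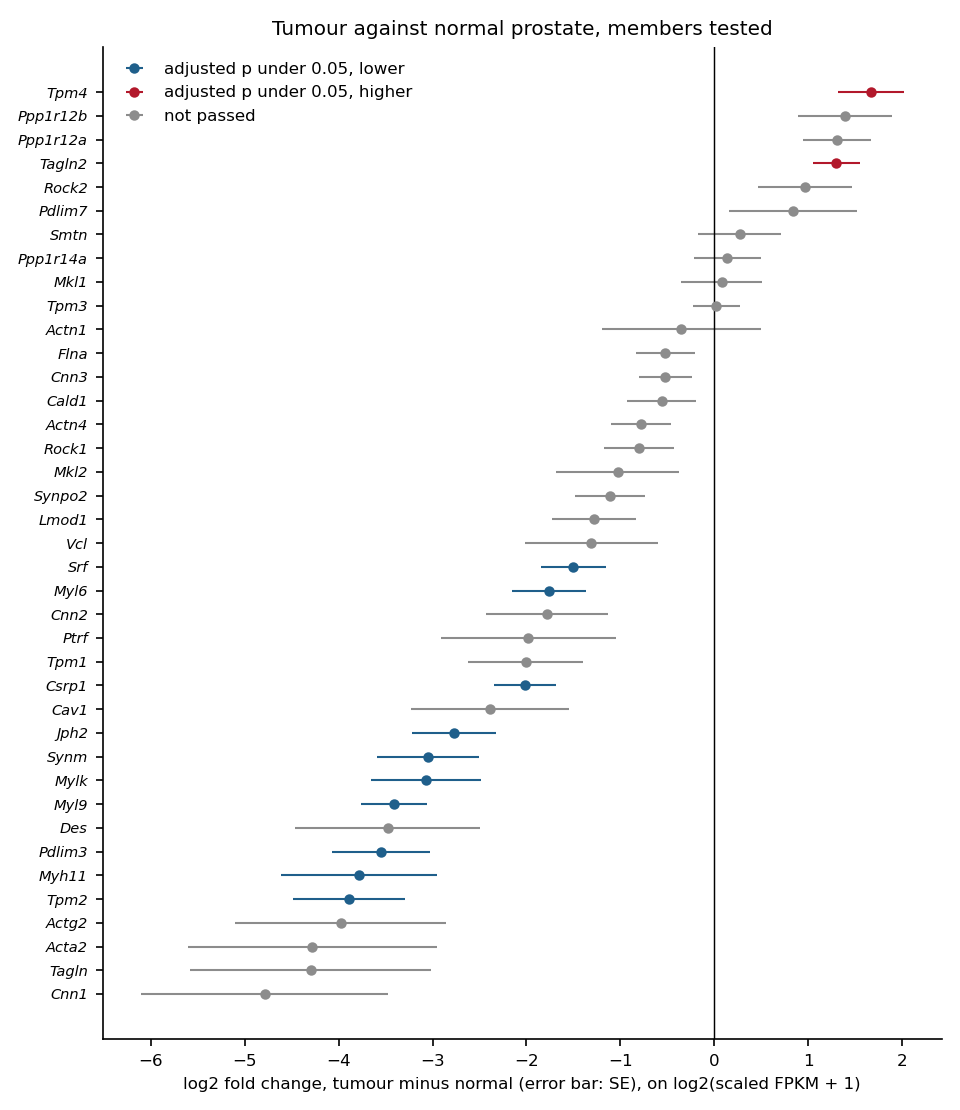
Log2 fold change of tumour minus normal (horizontal axis, on log2(scaled FPKM + 1)) with its SE for the 39 members tested, in order of size. Cnn1, Tagln, Acta2 and Actg2 lie farthest to the left with the longest error bars and did not pass, while Myl9 and Tpm2 have shorter bars and passed.

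Among the transcription factors, Srf (chromosome 17, 46546839 to 46556162) lay at 22.0 and 22.2 in the normal glands and at 8.60 and 6.00 in the tumours. Both tumours were below both normal glands, and it fell 2.82-fold (log2 difference -1.50, SE 0.35, adjusted p = 0.0489). It did not pass on the deposited FPKM (-0.63, adjusted p = 0.202) or with the trimmed sum (-0.89, adjusted p = 0.119), besides the settings named above. Myocd, myocardin, the muscle-specific co-activator, was listed at 0 in normal 1 and tumour 1 and lay at 0.925 in normal 2 and 0.204 in tumour 2, on 5.4 and 1.2 implied fragments, so its level was not measurable at this depth. Of the MRTF co-activators, which link SRF to the pool of free actin, Mkl1 lay at 5.46 and 3.37 against 4.81 and 4.44 (adjusted p = 0.90), and Mkl2 at 6.24 and 4.34 against 0.746 and 4.29 (adjusted p = 0.293). Mef2c, a muscle and neural factor, was listed at 0 in both normal glands and lay at 0.135 and 0.238 in the tumours.

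SRF binds the CArG box, an A- and T-rich stretch between a CC and a GG that reads alike on both strands. RefSeq promoter windows of build GRCm38.p6, from 250 bases before a gene's start to 50 after it, matched 40 of the 45 members by symbol or older symbol. The other members, among them Myh11, Tagln and Actg2, had no window and were not searched. The box was in the window of 7 of the 40 (17.5%), namely Myl6, Myl9, Cnn2, Vcl, Ldb3, Srf and Dmd, and in 488 of 27025 genes with a window (1.81%). Of these members Myl6, Myl9 and Srf fell, Cnn2 and Vcl did not pass and Ldb3 and Dmd were not tested. With 1 inner base left free, a choice made after seeing the data, 13 members (32.5%) held such a CArG-like box, against 11.3% of all genes, and Acta2 was then among them. A match describes letters and not binding, and a missing match says only that they are not in this window. The 250 bases before the start are given for Myl9, which had the smallest adjusted p of the members, for Acta2, the defining gene of the cell type, for Srf itself, and for Vcl, a widely expressed member with a box that did not pass. The strands are plus for Myl9 (chr2:156775214-156775463) and Vcl (chr14:20929148-20929397) and minus for Acta2 (chr19:34255374-34255623) and Srf (chr17:46556163-46556412), each read 5′ to 3′ toward the gene, with boxes of either kind in capitals.
Myl9: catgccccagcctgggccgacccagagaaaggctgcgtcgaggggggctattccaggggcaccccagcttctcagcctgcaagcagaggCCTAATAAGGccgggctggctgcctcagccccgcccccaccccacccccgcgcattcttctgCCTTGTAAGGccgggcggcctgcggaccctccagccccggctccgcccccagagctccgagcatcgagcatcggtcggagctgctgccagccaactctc
Acta2: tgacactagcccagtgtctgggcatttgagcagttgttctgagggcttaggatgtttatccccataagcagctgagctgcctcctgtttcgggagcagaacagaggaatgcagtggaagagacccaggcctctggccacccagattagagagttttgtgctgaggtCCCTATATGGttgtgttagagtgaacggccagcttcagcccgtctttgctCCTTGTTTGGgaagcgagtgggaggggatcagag
Srf: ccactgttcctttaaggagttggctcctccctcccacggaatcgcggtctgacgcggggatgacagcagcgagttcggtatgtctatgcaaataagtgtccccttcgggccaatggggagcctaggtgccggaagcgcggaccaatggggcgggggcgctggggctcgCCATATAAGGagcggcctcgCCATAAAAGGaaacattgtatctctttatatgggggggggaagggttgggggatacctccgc
Vcl: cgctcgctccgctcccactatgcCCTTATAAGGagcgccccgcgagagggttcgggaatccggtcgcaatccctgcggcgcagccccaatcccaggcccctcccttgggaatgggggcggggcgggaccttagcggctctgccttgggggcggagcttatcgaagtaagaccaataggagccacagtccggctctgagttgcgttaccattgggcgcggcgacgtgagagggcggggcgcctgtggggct
In Myl9 the box begins 161 bases before the start and a CArG-like box 99 before it. Srf holds boxes at 82 and 62 bases before its start, Acta2 CArG-like boxes at 84 and 34, and Vcl a box at 227. Vcl lay at 15% of its normal mean in tumour 1 and 74.3% in tumour 2, and Myl9 at 6.66% and 11.7%.

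For most contractile genes both tumours lay below the normal glands but far apart in amount. Listed as muscle-restricted were Acta2, Actg2, Myh11, Cnn1, Tagln, Des, Smtn, Lmod1, Synm, Synpo2, Pdlim3, Jph2, Ppp1r14a, Ppp1r12b, Sgca, Ldb3 and Myocd. Myl9, Mylk and Tpm2, which also fell, were neither in this list nor in that of widely expressed members. Of the 17 members listed as muscle-restricted, 14 were tested, of which 4 fell, 0 rose and 10 did not pass. The median log2 difference of the 14 was -3.26. Their median level was 0.559% of the normal mean in tumour 1 and 19.7% in tumour 2. For the 16 widely expressed members, 2 fell, 2 rose and 12 did not pass, and the median level was 60.7% and 77.7% of the normal mean. Beside these counts, 8.27% of all genes tested were called lower and 9.85% higher. The median log2 fold change of the widely expressed members was -0.52, and it turned to 0.39 with FPKM as deposited and 0.11 with the trimmed FPKM sum. All 17 muscle-restricted members summed to 6.70% of the normal mean in tumour 1 and 21.1% in tumour 2. Smtn, Ppp1r14a and Ppp1r12b stood apart from the other muscle-restricted members. They summed to 23.3 and 21.5 scaled FPKM in the normal glands and to 40.6 and 23.5 in the tumours, while the other 14 genes summed to 673 and 629 against 4.49 and 118. These 14 thus came to 0.690% of the normal mean in tumour 1 and 18.2% in tumour 2. The 3 genes were singled out after their values were seen.

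Of 9 contractile genes set against Acta2, 7 stood lower in tumour 2 than in both normal glands, 1 stood higher and 1 lay between. The ratio of Tagln to Acta2 FPKM lay between, at 2.60 and 2.99 in the normal glands and 2.70 in tumour 2, and that of Des was higher, at 0.768 and 0.752 against 0.901. Actg2 was slightly lower, at 0.531 and 0.540 against 0.497. Myh11 stood at 0.327 and 0.317 against 0.218, Cnn1 at 1.23 and 1.14 against 0.811, and Tpm2 at 1.46 and 1.40 against 0.805. Myl9 stood at 2.01 and 1.96 against 1.17, Synm at 0.113 and 0.134 against 0.0663, and Pdlim3 at 0.149 and 0.197 against 0.0574. A single tumour gives these ratios no replicate check, and in tumour 1 Acta2 rested on too few fragments for a ratio.

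Other smooth muscle genes came from lists chosen for their function, and 18.1% of all genes tested were called in either direction. Of 21 other genes tested that are tied to SRF or to smooth muscle identity, 0 fell, 1 rose (4.76% called) and 20 did not pass, with a median log2 difference of -0.73. The gene that rose was Smtnl2, a smoothelin-like protein, listed at 0 in both normal glands and at 4.61 and 3.26 in tumours 1 and 2 (adjusted p = 0.0269), and it reached the filter through the tumours alone, so the test could only come out higher. The most abundant of this list were Ilk, integrin-linked kinase, at 37.3 and 45.5 against 47.9 and 48.0 (adjusted p = 0.582), and Fhl1, a LIM protein of muscle, at 27.0 and 25.4 against 27.2 and 17.7 (adjusted p = 0.622). Of 12 tested genes of excitation, calcium handling and receptors, 0 fell, 2 rose (16.7% called, near the share of all genes) and 10 did not pass. Cacna2d1, a calcium channel subunit that neurons express too, rose from 1.29 and 1.75 to 18.0 and 19.8 (log2 difference 2.99, SE 0.39, adjusted p = 0.0216). Gucy1b3, a subunit of the nitric oxide receptor guanylyl cyclase, was listed at 0 in both normal glands and lay at 10.4 and 6.25 in tumours 1 and 2 (adjusted p = 0.0219), with the same limit as Smtnl2. Rgs2, which dampens G-protein signals to muscle contraction, lay at 183 and 166 against 19.9 and 72.4 (adjusted p = 0.0724), and Atp2a2, the calcium pump of the sarcoplasmic reticulum, at 44.3 and 54.2 against 63.7 and 55.1 (adjusted p = 0.492). In the non-muscle actomyosin list 2 of 10 fell, 1 rose and 7 did not pass. The genes that fell were the regulatory light chains Myl12a, at 133 and 233 against 27.6 and 54.8 (adjusted p = 0.0430), and Myl12b, at 499 and 612 against 70.9 and 126 (adjusted p = 0.0228), so a fall was not confined to the muscle light chain Myl9. These light chains are close paralogs of Myl9 and each other.

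Markers of other cell types also differed between the libraries, and their part in the results above was not tested. Beside the counts of markers called, 8.27% of all genes tested were called lower and 9.85% higher. The 7 luminal epithelium markers summed to 1810 and 2120 scaled FPKM in the normal glands, to 22.0 in tumour 1 and to 1400 in tumour 2. Krt18 lay at 445 and 527 against 0.345 and 254.8, and Cdh1 was listed at 0 in tumour 1. In tumour 2 Krt8 and Krt19 were instead above both normal glands, at 438 against 178 and 191 and at 383 against 365 and 354. In tumour 1 Krt8 and Krt19 lay at 0.258 and 0.705. The 6 basal and myoepithelial markers, cells that can hold contractile proteins as well, summed to 74.9 and 71.1 against 2.52 and 55.8, with 1 of 4 tested lower. Krt15 was listed at 0 in tumour 1 and lay at 19.5 in tumour 2, against 39.3 and 45.7. Krt17 went the other way, at 2.13 and 0 in the normal glands and 2.52 and 31.0 in the tumours, and without it the list summed to 72.8 and 71.1 against 0 and 24.8. Tumour 1 was thus lowest in epithelial markers as well as in contractile genes. The 8 pericyte markers, which mark cells around small vessels that also carry Acta2, summed to 10.5 and 13.7 against 9.37 and 35.2, and the 8 endothelial markers to 10.7 and 4.29 against 3.37 and 40.9, with 0 called. The most abundant were Mcam at 3.12 and 5.74 against 5.99 and 7.77 and Pecam1 at 1.32 and 0.223 against 0.406 and 12.4. The pericyte markers differed in direction. Notch3 was lower, at 4.45 and 5.08 against 0.107 and 1.76, while Rgs5 was listed at 0 in both normal glands and lay at 1.03 and 14.8 in the tumours. The 8 fibroblast markers summed to 124 and 99.2 against 86.1 and 428, with 2 of 7 tested higher, both of which reached the filter through the tumours alone. Dcn, the most abundant, lay at 104 and 84.2 against 5.45 and 111, and without it the other 7 summed to 19.4 and 14.98 in the normal glands and to 80.6 and 317 in the tumours, so that tumour 1 then lay above both normal glands. Fbln1 lay at 0.590 and 0.200 against 30.8 and 24.6. The 5 macrophage markers summed to 6.34 and 5.85 against 112 and 265, with 2 of 5 higher, and Lyz2 lay at 94.2 and 206 in the tumours. The calls were Lyz2 and Cd68, of which Cd68 reached the filter through the tumours alone, so its test could only come out higher. Tumour 2 had the highest summed level of pericyte, endothelial and fibroblast markers of the 4 libraries, while its muscle-restricted members summed to 141.8 against 696 and 650.4 in the normal glands. The 12 skeletal muscle markers summed to 75.2 and 67.6 against 16.6 and 43.6, of which Acta1 made 38.9 and 39.4 against 4.20 and 17.9, and Tnnc2 made 26.6 and 20.6 against 3.37 and 7.93. Mylpf and Tnnt3 went the other way and did not pass. Mylpf stood at 1.68 and 3.42 against 5.23 and 10.5, and Tnnt3 at 1.17 and 1.59 against 2.08 and 3.37. Ckm lay at 6.14 and 0.520 against 0.681 and 1.80, Ttn was listed at 0 in both normal glands, and Pvalb was listed at 0 in all libraries but tumour 1.

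**Figure D4:**
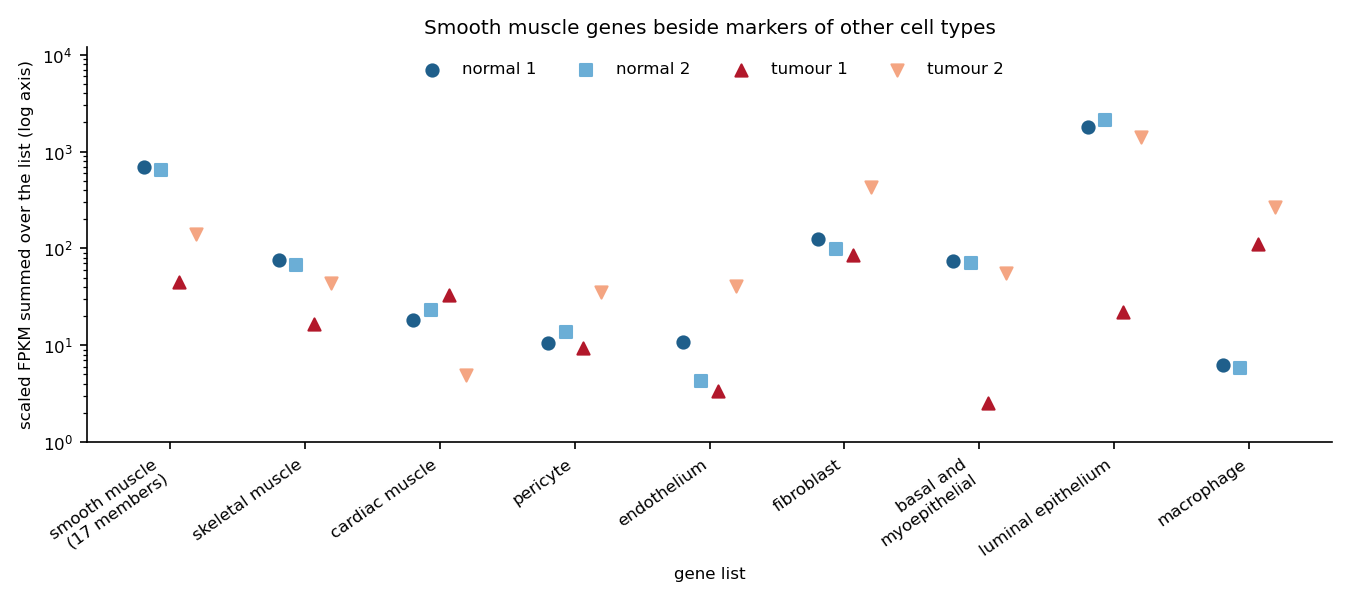
Scaled FPKM summed over the muscle-restricted members and over 8 lists of markers of other cell types (vertical log axis) in each library. Tumour 1 lies lowest in every list but those of cardiac muscle and macrophages (for fibroblasts through Dcn alone), and tumour 2 lies highest for pericyte, endothelial, fibroblast and macrophage markers but below both normal glands for smooth muscle genes.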

How the data were processed

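RNA was measured in 2 normal prostates and 2 TRAMP tumours, grouped by the labels. Tissue was frozen, RNA extracted with TRI Reagent and libraries made with a TruSeq kit, per the labels' protocols. The authors deposited 1 Cufflinks gene table per library, holding an FPKM value and interval bounds for every gene, per the file headers. Reads were processed with Trim Galore, with TopHat2 2.0.8, and with Cufflinks and Cuffdiff, both 2.1.1, on mm10 (GRCm38), per the submitters' processing notes, which give no order. No annotation, strand setting or scaling across libraries is stated (not given in the sources used here). A gene and its opposite-strand partner therefore cannot be told apart, and 13 members, among them Tagln, Mylk, Tpm4, Synm, Des and Vcl, share exonic positions with one in GENCODE M21.

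From the FPKM on, values were computed here with R 4.3.3, limma 3.58.1, Python 3.11.15, pandas 2.3.3, numpy 2.4.6 and matplotlib 3.10.9. The 27 rows whose names had become dates were left out and rows were summed by name. FPKM are not counts. Implied fragments were computed from each interval, taken as 2 Poisson standard deviations, which understates them where isoforms are uncertain, and they cover counting error only. A value of 0 can be a failed estimate and is given as listed at 0. Library factors were medians of ratios over the 11469 genes above 0 in all libraries, at 0.793 and 0.689 (normal) and 1.34 and 1.50 (tumour). Limma was fitted with an intensity trend, two-sided, with 2 residual and 2.85 prior degrees of freedom, and was tested on simulated data. Deposited positions were converted to a first base of 1. The members, their roles and all lists were chosen with earlier results of these data known. Every member is named, with values in every library for those past the threshold, the defining genes and the isoform families; in the pathway lists the named genes are those past the threshold and the 2 most abundant, and in the marker lists chiefly the most abundant one. Alternatives were other scalings, a pseudocount of 0.1, other filters, no intensity trend and leaving out each library. The test of 1 luminal marker is not reported here.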

Additional observations from a re-analysis of the deposited data

How the results depend on the processing

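No paired analysis was possible because the labels give no replicate numbers that tie a normal gland to a tumour. Over all genes the counts called higher and lower were 1296 and 1088, against 3681 and 427 with FPKM as deposited, 2537 and 554 with the trimmed sum, which drops genes above 1% of a library, 245 and 249 without the filter on low values, and 555 higher with an FPKM of at least 1 in all libraries; leaving out 1 library gave 0 to 2170 higher and 0 to 3405 lower. Of the members, 2 rose and 10 fell, against 4 and 5 with FPKM as deposited, 0 and 1 (Myl9) without the filter, 0 higher without the intensity trend and 3 lower with a pseudocount of 0.1; leaving out 1 library gave 0 to 5 higher and 0 to 24 lower. The median log2 fold change of the members was -1.31, and it was -0.70 with FPKM as deposited, -0.67 for the 28 members with an FPKM of at least 1 in all libraries, and -1.75 to -0.80 with 1 library left out. For the muscle-restricted members it was -3.26, with -4.69 at a pseudocount of 0.1. It was 0.14 over the 5 members with an FPKM of at least 1 in all libraries. That filter kept Tagln, Des, Smtn, Ppp1r14a and Ppp1r12b and removed, among others, Cnn1, Acta2, Actg2 and Myh11. For the widely expressed members it was -0.52, turning to 0.39 with FPKM as deposited and 0.11 with the trimmed sum, with -0.65 to -0.24 when 1 library was left out. Actn1, at -0.35, turned to 0.92 without tumour 1 and was -1.53 without tumour 2. No member that passed over all 4 libraries changed sign in any alternative run. The family shares of Acta2 with Actg2, Tpm2, Tpm4, Cnn1, Tagln, Myh11 and Myh10 did not overlap between the groups. Leaving out any 1 library could therefore not change their direction and is no check of it. Those of Cnn2, Myh9 and Actn1 lay on opposite sides of the normal glands in the tumours. The CArG box was in 7 member promoters, also in the 250 bases before the start alone, and a CArG-like box in 13. Members under about 10 implied fragments, such as Ppp1r14a, Myocd and Ldb3, are limited by depth.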

Other observations

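Genes of cardiac muscle, from a list chosen for the cell type, went in both directions. Tnni3, cardiac troponin I, which normal smooth muscle lacks, lay at 12.0 and 14.2 scaled FPKM in the normal glands but at 0 in each tumour (log2 difference -3.81, SE 0.39, adjusted p = 0.0195 by limma). It reached the filter on low values through the normal glands alone, so the test could only come out lower. Actc1, cardiac actin, was listed at 0 in both normal glands and stood at 12.9 in tumour 1 and 1.23 in tumour 2 (adjusted p = 0.116), and Nppa, atrial natriuretic peptide, lay at 19.1 in tumour 1 and 0.775 in tumour 2 against 0 in both normal glands (adjusted p = 0.172). The heavy chain Myh6 was listed at 0 in all 4 libraries. Their sources in the tissue were not tested.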
